A study of Mus musculus with 9 samples.

Results

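The exon array used in this series carries many probe sets that its platform annotation ties to no gene symbol, and these unnamed probe sets are described here. A probe set is a small group of probes against one short stretch of sequence, and the deposited table holds 1256831 of them. Members were chosen by 2 criteria: no symbol, and a mean log2 value over the 9 arrays that reached the table's median of 6.07. This gave 370619 members out of 931387 probe sets with no symbol, that is 39.8% of them. The same limit kept 253568 of 318760 probe sets with 1 symbol (79.5%) and 4229 of 6684 with several. Brightness thus helped to choose the members and is given as a description. The contrasts between hairpins were not used to choose them.

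The samples, 9 in all, were primary cortical neurons from C57BL/6 mouse embryos of embryonic day 15, grown with BDNF and CNTF and treated with AraC, which kills dividing cells. All were infected for 4 h with a lentivirus on day 5 and harvested on day 11. The 3 groups, of 3 arrays each, received a control short hairpin RNA (shCont), a first hairpin that targets Tdp-43 (shTdp-43-1) or a second one (shTdp-43-2), and no uninfected group is among the samples. The series' design text names motor neurons and the sample labels name cortical neurons; the labels were followed. Nothing in the labels says that arrays of a group came from separate cultures or embryos, so p-values measure the spread between these samples, which may be technical.

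Tdp-43, the product of Tardbp, is an RNA-binding protein of the nucleus that binds GU-rich stretches, many of them deep in introns. It is known to repress the splicing of cryptic exons, stretches of intron that neurons otherwise leave out, and its loss from the nucleus marks affected neurons in amyotrophic lateral sclerosis and frontotemporal lobar degeneration. Exon arrays of this kind were designed with probe sets against predicted genes, expressed sequence tags and other speculative exons besides those of well-supported transcripts. Such probe sets can therefore read RNA outside annotated exons. Lack of a symbol is, however, no proof of such a position. Of 21900 protein-coding genes of RefSeq (GRCm38.p6), 2580 (11.8%) matched no symbol of the annotation by current name or synonym. The number of a probe set gave no position either: of 77114 pairs of single-symbol probe sets with adjacent numbers, 7 shared a symbol. Members are therefore named by number, and no sequence, gene or coordinate is given for them.

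The knockdown and the culture were checked on named genes, as the mean log2 value of a gene's single-symbol probe sets. Tardbp read 9.77, 9.94 and 10.06 on the shCont arrays, 7.84, 8.23 and 8.55 with shTdp-43-1, and 8.22, 8.58 and 7.90 with shTdp-43-2. Its level fell to 30.4% and 30.9% of control (limma adjusted p = 0.000355 and 0.00011). Of the probe sets of 10 cortical neuron markers, 124 of 125 reached the table's median, against 49 of 76 for 6 motor neuron markers and 67 of 108 for 8 microglial markers. Of the cortical neuron markers, 8 were tested as genes: in the mean of both hairpins Neurod6, a transcription factor of excitatory cortical neurons, fell by 0.60 on the log2 scale (limma adjusted p = 0.000448), and Slc17a7, a vesicular glutamate transporter, rose by 0.39 (adjusted p = 0.0334). Over all 16834 genes tested, 19.3% were called in that contrast, and the counts of markers are to be read against it. Of 8 fibroblast and pericyte markers 7 were tested. The summed linear level of these 7 was 4034 to 4084 with shCont, 3296 to 3328 with shTdp-43-1 and 2533 to 2772 with shTdp-43-2. In the mean of both hairpins 4 of them fell (Dcn, Fn1, Pdgfrb and Rgs5). The collagen genes Col1a1, Col1a2 and Col3a1 did not, at log2 changes of 0.14, 0.14 and 0.15 (limma adjusted p = 0.243, 0.267 and 0.248). For 8 astrocyte markers the sums were 10237 to 12718, 9550 to 10055 and 8913 to 9396, with 2 lower. For 6 inhibitory neuron markers they were 7728 to 8689, 8043 to 8959 and 6880 to 7136, with 1 higher and 2 lower. The sums of the cortical neuron, motor neuron, microglial and oligodendrocyte markers overlapped between shCont and each hairpin, and no marker tested was listed at 0. Such values could come from fewer cells of a type or from less RNA per cell, which bulk RNA cannot tell apart. Their part in the changes of unnamed probe sets was not tested.

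Unnamed probe sets were mostly dim. The median of their mean log2 values was 7.21, with quartiles of 6.60 and 8.12; for single-symbol probe sets the median was 9.19, with quartiles of 7.71 and 10.64. A mean of at least 10 was reached by 23810 members (6.42%), against 90897 single-symbol probe sets (35.8%). The brightest member reached 14.92. When all tested probe sets were cut by brightness into 10 bins of nearly equal size, numbered from the dimmest, members made up 83.7% of bin 1 and 18.7% of bin 10. The 2 members just inside the limit, 5210512 and 5570079, and the 2 unnamed probe sets just outside it, 5233893 and 4664832, all had a mean of 6.07. The group means of 5210512 were 5.44 in shCont, 6.62 in shTdp-43-1 and 6.14 in shTdp-43-2, and its shCont arrays ranged from 3.16 to 6.75. Those of 5233893 were 6.15, 6.12 and 5.93. A further 20744 unnamed probe sets are listed at exactly 0 on all 9 arrays, and all of these lie below the limit.

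Brightness and noise went together. The median residual SD within groups was 0.292 for members and 0.210 for single-symbol probe sets. Inside bin 1 it was 0.362 and 0.361, and inside bin 10 it was 0.155 and 0.127. Across members, pairs of arrays correlated with r from 0.911 to 0.961 within groups and from 0.892 to 0.960 between groups, as a description over probe sets that share the arrays. At equal brightness, unnamed and named probe sets thus had nearly equal spread in the dim bins, and unnamed ones had more in the bright bins.

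As a class, members sat slightly higher with shTdp-43-1. Each member's deviation from its own 9-array mean, as the median per brightness bin averaged over the bins, was -0.05, -0.02 and -0.03 on shCont replicates 1 to 3. On the shTdp-43-1 arrays it was 0.04, 0.10 and 0.09, and on those of shTdp-43-2 it was -0.02, -0.04 and 0.03. The shTdp-43-1 arrays were above the shCont arrays without overlap, while shTdp-43-2 overlapped with shCont. For shTdp-43-1 the median log2 change over members was 0.11 and for shTdp-43-2 0.03, against -0.01 and -0.03 over single-symbol probe sets. These medians are not matched for brightness. In bin 1 the median change with shTdp-43-1 was 0.13 for members and 0.09 for named probe sets, in bin 7 0.11 and -0.03. Members minus matched named probe sets read -0.071, -0.006 and -0.060 on the shCont arrays and -0.015, 0.054 and 0.074 with shTdp-43-1. With shTdp-43-2 it read 0.012, -0.045 and 0.076, so after matching each hairpin overlapped with shCont. The level of the members depends on the scaling of the arrays. The median of the whole table was 6.04 to 6.06 in shCont, 6.15 to 6.19 in shTdp-43-1 and 6.06 to 6.09 in shTdp-43-2, and centring each array on it lowers every change with shTdp-43-1 by 0.12. The median change with shTdp-43-1 then became -0.01 over members and -0.13 over single-symbol probe sets. The shift of the members thus all but vanished with centring. With quantile normalization it was 0.04 over members and -0.04 over single-symbol probe sets. Members stayed above named probe sets in these unmatched medians.

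**Figure D1:**
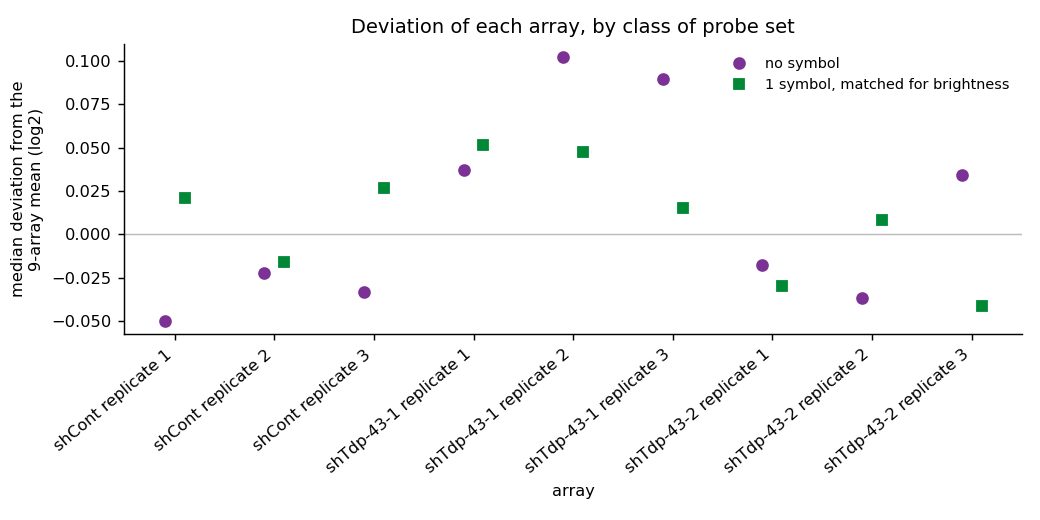
Median deviation of probe sets from their own 9-array mean (log2, y axis; medians per brightness bin, averaged) on each array (x axis), for members (circles) and for single-symbol probe sets weighted to the brightness of the members (squares). Members lie highest on shTdp-43-1 replicates 2 and 3, at 0.10 and 0.09, where matched named probe sets lie at 0.05 and 0.02. On shTdp-43-1 replicate 1 members lie below matched named probe sets, at 0.04 and 0.05. On shTdp-43-2 replicate 3 they lie at 0.03 and -0.04.

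Unnamed probe sets changed in the same direction with both hairpins in few cases, and the share was smaller than among named ones of equal brightness. With an adjusted p under 0.05 for each hairpin (limma, adjusted over all 628416 probe sets tested), 83 members changed the same way, 50 higher and 33 lower. This is 0.0224% of the members, where 0.066% of all tested probe sets were called so (0.0404% higher, 0.0256% lower). Among single-symbol probe sets the share was 0.131%, and weighted to the brightness of the members it was 0.0846%. For rises the shares were 0.0135% of members against 0.0251% of matched named probe sets, and for falls 0.0089% against 0.0595%. These shares are descriptions, since probe sets of one array are not replicates, and both comparisons use the same 3 control arrays. The matched share for falls rests on few named calls in the dim bins: 8, 5, 6, 9 and 10 in bins 1 to 5. Named probe sets also include several per gene, among them 16 tested for the target Tardbp, so a changed gene can count more than once. Some of the 83 passed the limit of brightness only through the condition where they are high, as given below.

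The 83 calls depend on the arrays, the limit of brightness and the fit. The count was 0 with that limit at the 25th percentile, with no limit, with the 2 groups compared fitted alone and with a block for the replicate number, and 568 with a mean-variance trend. It was 0 without shCont replicate 1, 2 or 3, 0 without shTdp-43-1 replicate 2 or 3, and 1 without shTdp-43-1 replicate 1. It was 24, 22 and 52 without shTdp-43-2 replicates 1, 2 and 3. In the settings with 0 calls by limma, at least 8191 members had an unadjusted p under 0.05 the same way with both hairpins (11016 with all arrays). Both comparisons use the same 3 control arrays, which favours the same direction, so these counts are a description. With all arrays 10.6% of members had such a p with shTdp-43-1 (11.9% of all tested probe sets) and 9.0% with shTdp-43-2 (13.2% of all). Centring the arrays turned the split from 50 higher and 33 lower into 30 higher and 45 lower.

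Rises and falls lay in different ranges of brightness. Of the 50 members that rose, 34 were in bins 9 and 10 and 3 in bins 1 to 4; of the 33 that fell, 7 were in bins 9 and 10 and 16 in bins 1 to 4. In bin 10, 20 of 11735 members rose with both hairpins (0.17%), next to 88 of 50154 single-symbol probe sets (0.175%); 1 member and 2 single-symbol probe sets fell. In bin 9, 14 members rose (0.0956%, against 0.149%) and 6 fell (0.041%, against 0.0484%). In each of bins 1 to 9 the share called lower was larger for named probe sets than for members, for example 26 of 29396 (0.0884%) against 2 of 33033 (0.0061%) in bin 7. For rises the share of members was the larger in bin 1 (3 members against 0 named probe sets) and in bin 6 (0.0074% against 0.00455%), and the smaller in the other bins. In bin 10 the shares called higher were close.

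**Figure D2:**
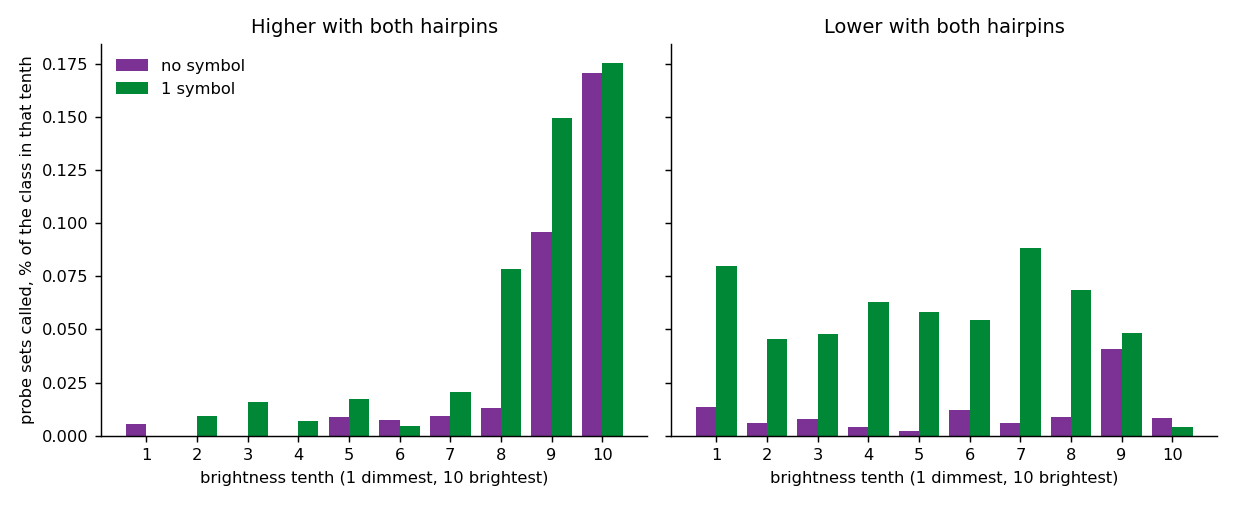
Share of probe sets called with both hairpins (percent of the class, y axis) in each of 10 bins of brightness (x axis, 1 the dimmest), for members and single-symbol probe sets, higher on the left and lower on the right. In bin 10 the shares called higher are 0.17% and 0.175%, and in bin 7 the shares called lower are 0.0061% and 0.0884%.

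Counts that use no p-value gave members the smaller shares too when all bins were taken. At least 2-fold higher with both hairpins were 238 members (0.0642%; 0.095% of all tested probe sets) and at least 2-fold lower 260 (0.0702%; 0.117% of all). Matched single-symbol probe sets reached 0.115% and 0.328%. In bin 10, 21 members (0.179%) and 87 named probe sets (0.173%) were at least 2-fold higher, and 0 and 2 were at least 2-fold lower. All 6 knockdown arrays lay above all 3 shCont arrays for 10447 members (2.82%; 3.61% of all tested) and below them for 6330 (1.71%; 3.77% of all), against 3.10% and 4.65% of matched named probe sets. With arrays centred on their median these 2 counts of members became 6059 and 10036, so that the surplus of higher members flips. The lower share of members then was 2.71%, against 6.61% of matched named probe sets, and the counts past 2-fold became 153 higher and 432 lower.

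The changes of the called members were large, which the choice by adjusted p under 0.05 with each hairpin itself favours. Among the 50 members that rose, the smaller of the changes with the 2 hairpins ranged from 0.68 to 2.15 on the log2 scale with a median of 1.24, and 43 rose at least 2-fold with each hairpin. Among the 33 that fell it ranged in size from 0.74 to 2.92 with a median of 1.32, and 25 fell at least 2-fold with each. For single-symbol probe sets called the same way the median sizes were 1.14 and 1.23. The largest of these sizes, 2.15 and 2.92, belong to 5148822 and 4826758. These passed the limit of brightness through the knockdown arrays and the shCont arrays respectively. In all 83 members, the 3 arrays of each hairpin did not overlap with the shCont arrays. The same choice all but fixes this, so it adds no support. The size was larger with shTdp-43-1 in 29 of the 50 and 19 of the 33. Members took 23 of the 100 largest rises and 19 of the 100 largest falls over all probe sets called with both hairpins, of which they made up 50 of 254 and 33 of 161. A member ranked first among the falls and another ranked second among the rises.

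**Figure D3:**
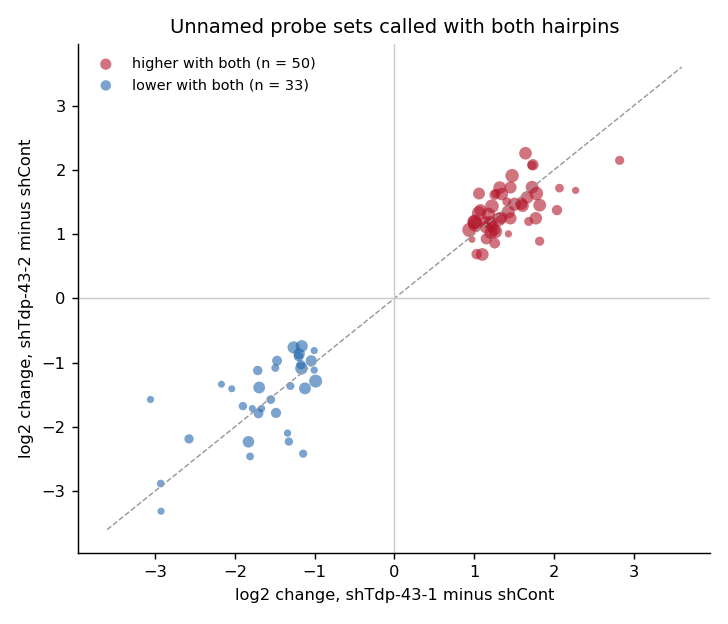
Log2 change with shTdp-43-1 (x axis) and with shTdp-43-2 (y axis), each minus shCont, for the 83 members called the same way with both; point size grows with the 9-array mean, and the dashed line marks equal changes. The 50 that rose lie between 0.68 and 2.82, and the 33 that fell reach -3.06 with shTdp-43-1 and -3.31 with shTdp-43-2.

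The largest rise with both hairpins was in probe set 5148822. It read 5.99, 5.84 and 6.29 on the shCont arrays, 9.66, 8.51 and 8.41 with shTdp-43-1, and 8.61, 8.32 and 7.63 with shTdp-43-2. The shCont arrays lay around the median of the table and all 6 knockdown arrays were at least 1 unit above them, with shTdp-43-1 replicate 1 the highest. Its shCont mean of 6.04 was below the limit of brightness, so it became a member through the knockdown arrays, and its log2 differences of 2.82 and 2.15 are given with no test. Probe set 5355034 was dimmer in the controls, with 4.86, 4.91 and 5.27, and read 7.41, 6.83 and 7.61 with shTdp-43-1 and 6.94, 6.64 and 6.49 with shTdp-43-2. All of its shCont arrays were below the table's median and all of its knockdown arrays above it, so the knockdown arrays made it a member too. Its differences from shCont, 2.27 and 1.68, are therefore given with no test.

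Probe sets 5202990 and 5322103 also started near the median of the table. The first read 6.32, 6.10 and 5.88 in shCont, 8.81, 7.85 and 7.84 with shTdp-43-1, and 8.29, 7.65 and 7.50 with shTdp-43-2. The second read 6.52, 6.70 and 6.55 in shCont, 8.73, 8.15 and 8.06 with shTdp-43-1, and 9.07, 8.74 and 8.17 with shTdp-43-2. In both, replicate 1 of each hairpin was the highest array of its group, and no knockdown array came as low as a control. Their log2 changes were 2.07 and 1.72 for 5202990 and 1.72 and 2.07 for 5322103, with limma adjusted p = 0.0476 and 0.0486 for shTdp-43-1, close to the threshold.

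The other 4 members with the largest rises were bright in the controls. Probe set 4744052 had a shCont mean of 8.37 ± 0.0847 (SD, n = 3) and rose 3.33-fold and 4.23-fold, to 10.11 ± 0.142 and 10.45 ± 0.268. Probe set 5359036 read 10.03, 9.90 and 10.13 in shCont, 12.01, 11.61 and 11.61 with shTdp-43-1, and 11.83, 11.82 and 11.60 with shTdp-43-2, rising 3.31-fold and 3.32-fold. The hairpins gave it nearly equal values, with a difference of 0.01 ± 0.163 (SE, limma adjusted p = 0.996). Probe set 5189963 rose from 9.74 ± 0.123 to 11.38 ± 0.330 with shTdp-43-1 and to between 11.90 and 12.09 with shTdp-43-2, and 5566934 from 11.05 ± 0.428 to 12.83 ± 0.206 and 12.69 ± 0.292. In these bright probe sets the groups were separated by over 1 unit of log2 value, and the gap was narrowest in 5566934, between shCont replicate 3 at 11.43 and shTdp-43-2 replicate 1 at 12.46.

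Among the falls, probe set 4826758 changed most. It read 8.57, 8.22 and 8.21 in shCont, 6.10, 5.16 and 4.96 with shTdp-43-1, and 5.07, 5.02 and 4.97 with shTdp-43-2. Of its knockdown arrays, 5 of 6 were below the median of the table and shTdp-43-1 replicate 1 was just above it. It passed the limit of brightness through the shCont arrays, so its log2 differences of -2.92 and -3.31 are given with no test. Probe set 5219695 read 9.07, 8.57 and 7.89 in shCont, where the 3 arrays were spread over more than 1 unit. With shTdp-43-1 it read 5.61, 5.72 and 5.41 and with shTdp-43-2 5.71, 5.87 and 5.30, so all 6 lay below the median of the table. It too was a member through shCont, and at this dim level nothing is read from how close the hairpins lie.

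Probe set 5120980 had the tightest values of the named members. It read 11.27, 11.18 and 11.26 in shCont, 9.41 ± 0.0834 (SD, n = 3) with shTdp-43-1, and 8.97 to 9.04 with shTdp-43-2. The 3 groups do not overlap, and all values are far above the limit of brightness. It fell by 1.83 ± 0.129 and 2.23 ± 0.129 (limma adjusted p = 0.015 and 0.00173), while its difference between the hairpins, -0.40 ± 0.129, did not pass (adjusted p = 0.284). Its smaller change lay between -1.95 and -1.80 in all 18 other settings tried, but its call with both hairpins was kept in 8 of them and lost in 10.

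The other 5 of the 8 largest falls were in 5314150, 5427131, 4340551, 5516532 and 4327527. Probe set 5314150 fell from 9.37 ± 0.549 (SD, n = 3) to 6.80 ± 0.608 and 7.18 ± 0.0989, with wide spread in shCont and shTdp-43-1. Probe set 5427131 read 8.10 ± 0.208 in shCont, 6.29 ± 0.395 with shTdp-43-1 and 5.64 ± 0.314 with shTdp-43-2. Without the shCont arrays it would not have reached the limit of brightness, so its values are a description. Probe set 4340551, a member through shCont, read 7.36 ± 0.0434 there and 5.58 ± 0.264 and 5.64 ± 0.367, below the median of the table, with the hairpins. Probe set 5516532 fell 3.26-fold and 3.46-fold from 9.39, and 4327527 fell 3.73-fold and 3.20-fold from 8.28. Each of the 16 members named for a change with both hairpins kept its direction in every setting tried. Their choice as the largest changes all but fixes this, so it adds no support. Their calls were kept in 90 of 280 combinations of member and setting.

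**Figure D4:**
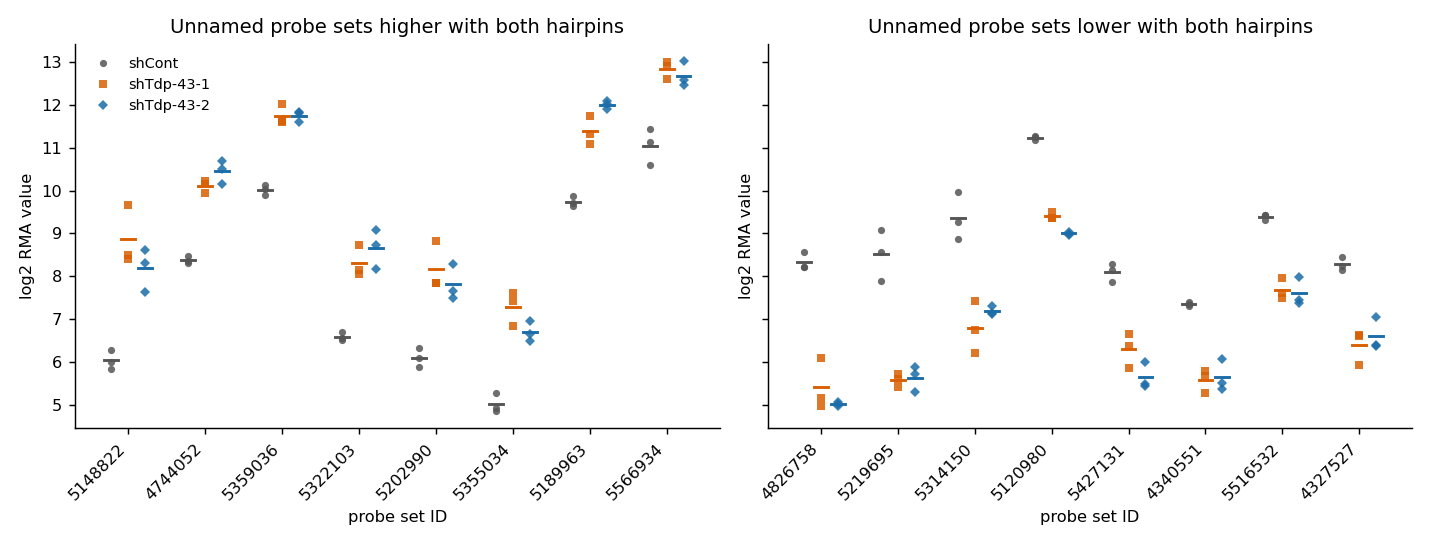
Log2 value (y axis) on each of the 9 arrays for the 8 members with the largest rises (left) and the 8 with the largest falls (right) with both hairpins; points are arrays, bars are group means of 3 arrays, and colours and shapes mark the groups. In each of the 16 probe sets the shCont points stand apart from all 6 knockdown points, from controls near 5.01 in 5355034 up to 11.23 in 5120980.

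Few of the 83 crossed the limit of brightness between conditions when every array of a condition had to lie below it. In 3 of the 50 that rose (5355034, 5239964 and 4843256, the last pair chosen after their values were seen), all shCont arrays were below the median of the table. In 3 of the 33 that fell (5219695, 4340551 and 5314453, the last also chosen so), all knockdown arrays were below it. By group means more crossed. The shCont mean of 5148822 was below it at 6.04, and both hairpin means of 4826758 were, at 5.41 and 5.02. Both hairpin means were also below it in 4435945, 4692768 and 5451541, which were chosen after their values were seen. In 5427131, 4379627, 5583125 and 5394697 the lower hairpin mean was below it, at 5.64, 4.77, 5.42 and 5.89. The other hairpin mean was above it, at 6.29, 6.25, 6.17 and 6.08. Without shCont these would not have reached the limit, and all but 5427131 were chosen after their values were seen. For all probe sets listed here the calls are a description. The 9-array mean holds 6 knockdown and 3 control arrays, so a probe set at background in controls alone passes the limit more easily than one at background in both knockdown groups.

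Each hairpin was also taken on its own. With shTdp-43-1, 120 members were called, 77 higher and 43 lower (0.0324% of members; 0.0843% of all tested probe sets, 0.0508% higher and 0.0336% lower). With arrays centred on their median the split was 42 higher and 69 lower. Matched named probe sets were called in 0.114% of cases. Of the 120, 83 were also called the same way with shTdp-43-2 and 0 the opposite way. Leaving out any shCont array, or shTdp-43-1 replicate 2 or 3, gave 0 calls by limma, with 30774 to 36768 members at an unadjusted p under 0.05. With all arrays 39401 members were at that p (10.6%, against 11.9% of all tested probe sets). Leaving out shTdp-43-1 replicate 1 gave 1 call, and leaving out shTdp-43-2 replicate 1 or 2 gave 32 or 27.

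With shTdp-43-2, 2332 members were called, 620 higher and 1712 lower (0.629% of members; 1.54% of all tested probe sets, 0.506% higher and 1.03% lower). Matched named probe sets reached 0.54% higher and 1.31% lower, against 0.167% and 0.462% of members. Without adjustment, 33352 members (9.0%, against 13.2% of all tested probe sets) had a limma p under 0.05 with shTdp-43-2. With shTdp-43-1 it was 39401 (10.6%, against 11.9%). With arrays centred on their median the counts were 32788 with shTdp-43-2 and 32849 with shTdp-43-1. The larger count of adjusted calls with shTdp-43-2 is thus not matched at that threshold. The median size among called members was log2 1.09, and 324 of those that rose and 1122 of those that fell changed at least 2-fold. The 83 members called with both hairpins were 3.56% of these 2332. Falls outnumbered rises in each bin of brightness, from 124 against 56 in bin 1 to 107 against 75 in bin 10. Without shCont replicates 1, 2 or 3 the count was 361, 349 or 585, without shTdp-43-1 replicate 3 it was 1232, and without shTdp-43-2 replicate 1 or 3 it was 530 or 776; in each of these falls outnumbered rises.

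In the mean of both hairpins minus shCont, 1182 members were called, 490 higher and 692 lower (0.319%; 0.804% of all tested probe sets, 0.372% higher and 0.432% lower), and the share of matched named probe sets was 0.945%. With arrays centred on their median the split was 328 higher and 1000 lower. Without shCont replicates 1, 2 or 3 the count was 11, 0 or 104 (limma, with 34368 at an unadjusted p under 0.05 where it was 0). With all arrays 38251 members were at that p (10.3%, against 13.5% of all tested probe sets). The count of calls was 431 and 277 without shTdp-43-1 replicates 2 and 3, and 492 and 662 without shTdp-43-2 replicates 1 and 3.

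The difference between the hairpins was tested directly. It was called in 333 members, of which 55 were higher in shTdp-43-2 and 278 lower (0.0898% of members; 0.243% of all tested probe sets, 0.0672% higher and 0.176% lower). With arrays centred on their median the split was 55 and 88, so the surplus of lower members depends in part on scaling. Of the 278, 177 were also called against shCont with shTdp-43-2 and 3 with shTdp-43-1, and 99 were called with neither. The median size was log2 1.36 for the 55 and 1.22 for the 278. Of the 83 members changed by both hairpins, 1 also differed between them: 5417212 (chosen after its values were seen) read 7.98 to 8.26 in shCont, 6.79 to 7.09 with shTdp-43-1 and 5.53 to 5.91 with shTdp-43-2. The count was 57 to 71 without an shCont array, 24, 14 and 1 without shTdp-43-1 replicates 1, 2 and 3, and 12, 155 and 54 without shTdp-43-2 replicates 1, 2 and 3.

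Of the 4 members named as lower with shTdp-43-2 than with shTdp-43-1, 4366539 was the brightest. It read 11.43, 11.56 and 11.47 in shCont, 11.74, 11.56 and 11.66 with shTdp-43-1, and 8.33, 9.13 and 8.67 with shTdp-43-2. The shCont and shTdp-43-1 arrays lay close together and those of shTdp-43-2 more than 2 units below them. It fell 6.84-fold with shTdp-43-2 (limma adjusted p = 0.00256), and the difference between hairpins was -2.94 ± 0.196 (adjusted p = 0.00471). Probe set 4438158 read 10.24, 10.06 and 10.11 in shCont and 10.07, 9.31 and 9.47 with shTdp-43-1, which overlap, but 6.28, 7.12 and 6.62 with shTdp-43-2, an 11.0-fold fall. Probe set 4395975 went from 8.67 ± 0.166 (SD, n = 3) in shCont and 8.29 ± 0.345 with shTdp-43-1 to 5.42 ± 0.340 with shTdp-43-2, and 4981270 from 9.44 ± 0.235 and 9.48 ± 0.573 to 6.83 ± 0.156.

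In the opposite direction, 5504051 read 7.72, 7.73 and 7.79 in shCont, 7.42, 6.90 and 7.47 with shTdp-43-1, and 9.38, 9.28 and 9.12 with shTdp-43-2. It rose 2.86-fold with shTdp-43-2 and its change with shTdp-43-1 was -0.48 (limma adjusted p = 0.327). Probe set 4576371 read 5.72 ± 0.472 (SD, n = 3) in shCont, 6.04 ± 0.570 with shTdp-43-1 and 8.38 ± 0.441 with shTdp-43-2. The first pair of means lies below the limit of brightness, so it became a member through shTdp-43-2, and these values are a description. In 4410142 and 5511118 the hairpin means lay on opposite sides of the control mean. The shCont means were 6.36 and 6.42, the shTdp-43-1 means 5.21 and 4.95, and the shTdp-43-2 means 7.73 and 7.57. In 5511118 shTdp-43-2 replicate 3 at 6.66 was below shCont replicate 1 at 6.79, so these groups overlap. Neither hairpin passed the limma test against shCont in either probe set. The adjusted p was 0.196 and 0.0641 for 4410142 and 0.233 and 0.272 for 5511118. Without the shTdp-43-2 arrays these probe sets would not have reached the limit of brightness, so their values are a description too.

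**Figure D5:**
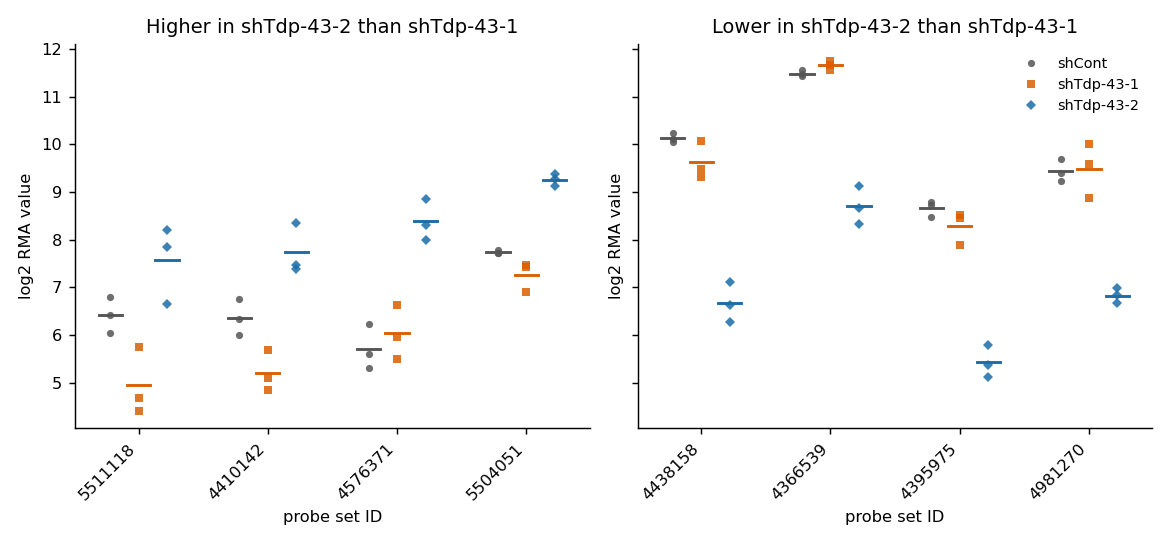
Log2 value (y axis) on each of the 9 arrays for the 4 members most above (left) and the 4 most below (right) in shTdp-43-2 relative to shTdp-43-1; points are arrays, bars are group means of 3 arrays. In 4366539 the shCont and shTdp-43-1 points lie between 11.43 and 11.74 and the shTdp-43-2 points between 8.33 and 9.13.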

How the data were processed

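The authors deposited 1 log2 value per probe set and array, an RMA value from an all-exon run of Expression Console, per the labels. Genome build mm9 is named in the submitters' processing notes; for software versions, none was given in the sources used here. RMA equalises arrays and pulls dim probe sets towards background. Symbols come from the platform annotation. The 628416 probe sets at or above the median 9-array mean (6.07) were fitted with limma 3.58.1 (R 4.3.3; lmFit, eBayes, 3 groups in one fit, 6 residual degrees of freedom), adjusted by Benjamini-Hochberg and called at an adjusted p under 0.05. The fit was tested on simulated data. To match brightness, the single-symbol share in each of 10 bins of the mean was weighted to the members' counts. Gene values are means of at least 3 tested single-symbol probe sets; marker genes were also looked up by RefSeq synonym. Named are the 8 members with the largest smaller change in each direction with both hairpins, and 4 in each direction between the hairpins. Members, lists and rules were chosen with earlier results of these data known. The arrays, 3 per group, limit the precision. Alternatives were other dim filters, scalings, fits, bins and leaving out arrays.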

Additional observations from a re-analysis of the deposited data

Results flagged for a closer look

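The 8 members named for a difference between the hairpins are listed here because the effects of the hairpins against shCont differed by the direct test (limma adjusted p under 0.05 for shTdp-43-2 minus shTdp-43-1). The differences in log2 value were 2.63 for 5511118, 2.52 for 4410142, 2.35 for 4576371, 2.00 for 5504051, -2.95 for 4438158, -2.94 for 4366539, -2.86 for 4395975 and -2.66 for 4981270. They were picked as the largest of the 333 members that passed this test. Of these, 5511118, 4410142 and 4576371 became members through shTdp-43-2, where they are high. For them the test lends no support, and the differences are a description. Over the settings tried the calls of the 8, these included, were kept in 83 of 140 combinations of member and setting. The direction was kept in all 140, which their choice as the largest differences all but fixes.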

How the results depend on the processing

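Counts of called members moved far with the settings, while 0 of the 24 named members changed direction. The kept direction adds no support. The named members were chosen as the largest changes, and other filters and fits leave the log2 changes as they are. The counts below are for shTdp-43-1, shTdp-43-2, the mean of both, the difference between hairpins, and the same way with both, in that order; with all arrays they were 120, 2332, 1182, 333 and 83. A limit of brightness at the 25th percentile gave 0, 663, 204, 26 and 0, at the 75th percentile 846, 3827, 2659, 1135 and 509, and with no filter 0, 630, 228, 1 and 0. A mean-variance trend in limma gave 1006, 4433, 2966, 1441 and 568. Fitting the 2 groups compared alone gave 0, 928, not run for the mean, 0 and 0. A block for the replicate number gave 0, 1807, 727, 12 and 0. Deviations of same-numbered arrays correlated from -0.25 to 0.40 over members, and 4 of 9 arrays correlated best with their own number. The numbers were therefore not taken to pair the arrays, although the 3 pairs of replicates 1 were all above 0.1 (0.133 to 0.404), and a shared set was not tested further. Where limma called 0 in these settings, 8596 to 14330 members had an unadjusted p under 0.05 the same way with both, 32206 to 46890 with shTdp-43-1 and 27835 between hairpins. In the main fit members reached that p less often than all tested probe sets in each contrast. Leaving out 1 array gave 0 to 103, 349 to 2144, 0 to 1039, 1 to 155 and 0 to 52. Arrays centred on their median gave 143 between hairpins. Centring on the members' own median and fitting members alone, a choice made after seeing the data, gave 9, 546, 237, 26 and 7. The share of members called with both hairpins over that of matched named probe sets was 0.265; it was 0.375 with the 75th percentile, 0.204 with arrays centred, 0.329 with the trend and 0.2045 to 0.380 without 1 array, where it could be computed. Tardbp kept its call in all 14 settings run for it with each hairpin.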
